A study of Mus musculus with 16 samples.

Results

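The genes described here make and sense prostaglandins and leukotrienes, and they were chosen by name: 10 genes of this pathway among the 22298 genes counted in each tumor, all of them present in the files. They were Ptgs1 and Ptgs2 (the cyclooxygenases COX-1 and COX-2), Ptges (the inducible prostaglandin E2 synthase), Hpgd (15-hydroxyprostaglandin dehydrogenase), Ptger2 and Ptger4 (the prostaglandin E2 receptors EP2 and EP4), Alox5, Alox5ap and Ltc4s (leukotriene synthesis) and Alox15 (12/15-lipoxygenase). Abdominal tumors were grown in wild-type, sex-matched, 6-week-old 615-line mice, the syngeneic host of MFC, a mouse forestomach carcinoma line labelled as gastric cancer cells. Both groups received MFC cells intraperitoneally, and were then treated by the same route every other day, one group with PBS as vehicle and the other with 20 μg/kg of IL-33. RNA of 8 tumors per group was sequenced, and the question was what IL-33 treatment changed in the tumor.

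The study's methods describe 4 or 5 mice per group for the abdominal model, and the labels do not tie the 8 tumors of a group to mice, so tumors may share a mouse and p-values measure the spread between tumors only. The counts totaled 14139268 to 24290794 per vehicle tumor and 16569613 to 24288893 per IL-33 tumor, and levels are given relative to this total as CPM (counts scaled to a common library size). A tumor is a mixture of tumor cells and host cells, and fewer cells of a type and less RNA per cell cannot be told apart. IL-33 replicate 7 stood apart from all other tumors. It held 1686 CPM of uterus and oviduct markers and 1678 CPM of ovary markers, against at most 23.3 CPM and 7.97 CPM in any other tumor, and results are therefore given with and without it. Vehicle replicate 4 had the lowest scaling factor (0.64 by the trimmed mean of M-values, TMM) and the highest summed level of neutrophil markers (505 CPM). Of the 6 epithelial markers, Krt8 made up 99.3% of their summed level over the 15 tumors without IL-33 replicate 7, and Epcam, Krt18, Krt7 and Cldn4 each averaged under 1 CPM there, so of these markers Krt8 alone was read at a high level.

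Cyclooxygenases convert arachidonic acid, released from membranes by phospholipases, into prostaglandin H2. COX-1 is made steadily by many cells and COX-2 is induced by growth factors and inflammation, Ptges turns prostaglandin H2 into prostaglandin E2, and Hpgd begins its inactivation. Arachidonic acid also feeds the 5-lipoxygenase branch, in which Alox5 with its partner Alox5ap makes leukotriene A4 and Ltc4s converts that into leukotriene C4, the parent of the cysteinyl leukotrienes of allergic inflammation.

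None of the 10 genes differed between the vehicle and IL-33 tumors in edgeR's quasi-likelihood test with Benjamini-Hochberg adjustment over 16817 genes, with adjusted p between 0.60 for Hpgd and 0.97 for Alox5ap. At an unadjusted p under 0.05, 0 of the 10 were higher, against 9.99% of all genes tested, and 0 were lower, against 1.17% of all genes. Without IL-33 replicate 7 the count was again 0 of 10 in each direction, where 1.83% of all genes were higher and 2.29% were lower. DESeq2 gave 0 of 10 with all tumors, where it called 2.52% of all genes higher and 1.59% lower, and without IL-33 replicate 7 it gave 0 of 10 higher and 1 of 10 lower, Alox5, where it called 1.81% of all genes higher and 2.48% lower. No gene of the whole table had an adjusted p under 0.05 with edgeR, while 1876 genes had an unadjusted p under 0.05 with all tumors and 651 without IL-33 replicate 7. Group ranges overlapped for every member, and the share of all genes whose ranges overlapped was not counted. The spread within a group was large for several members and small for others, and these values are described gene by gene.

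**Figure D1:**
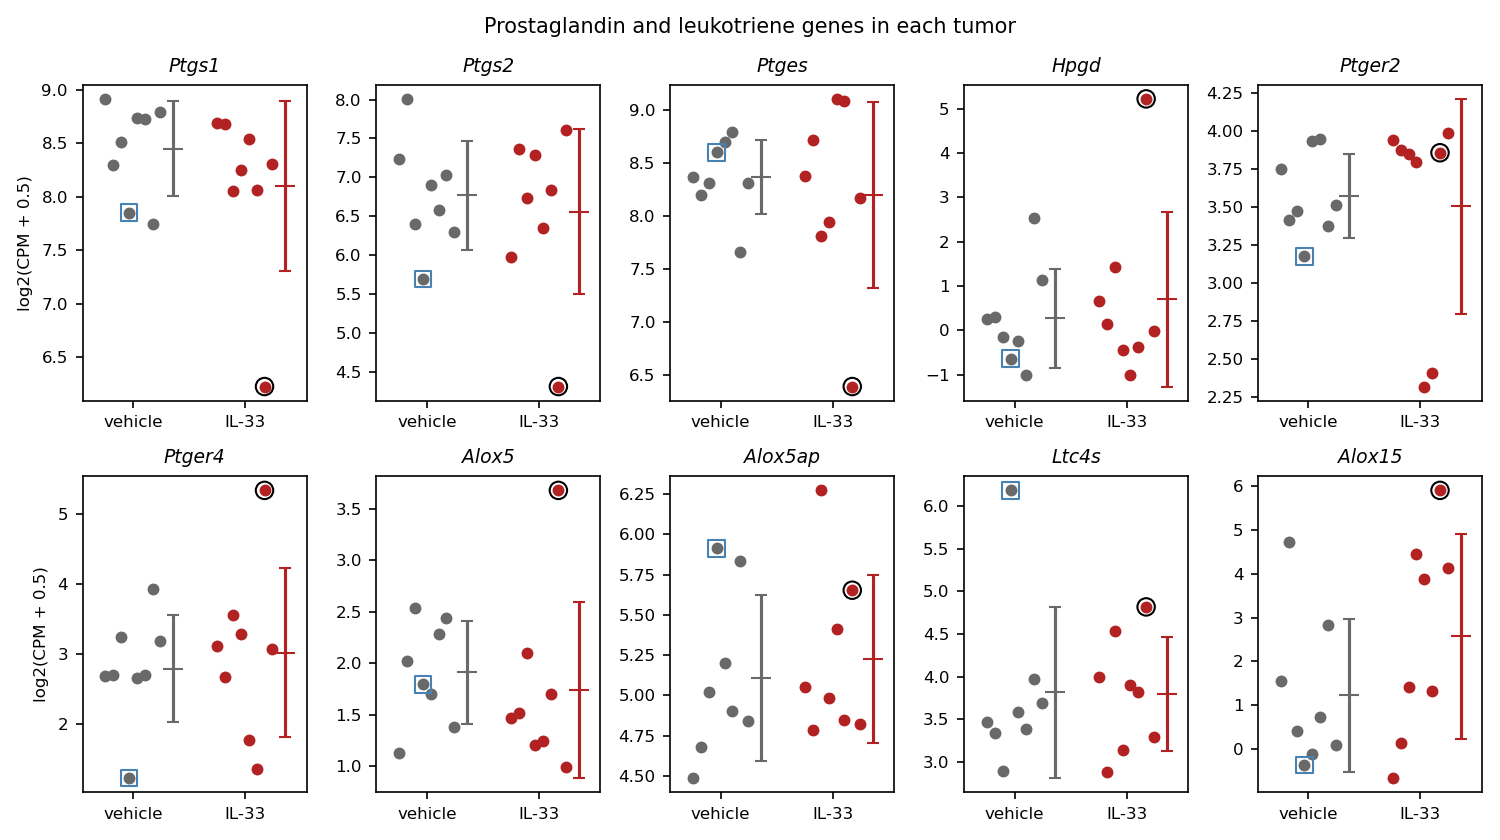
Each point is the level of a gene in 1 tumor on the scale log2(CPM + 0.5), in vehicle (grey, n = 8) and IL-33 tumors (red, n = 8), with the mean and SD of the group beside the points. The black circle marks IL-33 replicate 7, the lowest IL-33 tumor for Ptgs1, Ptgs2 and Ptges and the highest for Hpgd, Ptger4, Alox5, Ltc4s and Alox15, and the blue square marks vehicle replicate 4.

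Both cyclooxygenase genes were read at substantial levels in every tumor. The start regions of this pair are shown because Ptgs1 and Ptgs2 encode enzymes of the same reaction and were read at different levels. The windows run from 250 bases before the RefSeq start and cover 300 bases, at chr2:36230176-36230475 (+ strand) and chr1:150099781-150100080 (+ strand) of GRCm38. Capitals mark matches on either strand to the TATA box (TATAAA), the core of the cyclic AMP response element (TGACGT), the E-box (CACGTG), the GC box (GGGCGG) or the NF-κB consensus.
Ptgs1 promoter: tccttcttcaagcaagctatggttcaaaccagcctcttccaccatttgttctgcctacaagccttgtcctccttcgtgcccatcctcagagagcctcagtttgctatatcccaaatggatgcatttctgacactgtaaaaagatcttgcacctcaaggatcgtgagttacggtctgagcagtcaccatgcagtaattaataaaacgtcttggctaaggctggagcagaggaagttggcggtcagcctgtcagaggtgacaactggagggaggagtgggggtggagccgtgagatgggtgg
Ptgs2 promoter: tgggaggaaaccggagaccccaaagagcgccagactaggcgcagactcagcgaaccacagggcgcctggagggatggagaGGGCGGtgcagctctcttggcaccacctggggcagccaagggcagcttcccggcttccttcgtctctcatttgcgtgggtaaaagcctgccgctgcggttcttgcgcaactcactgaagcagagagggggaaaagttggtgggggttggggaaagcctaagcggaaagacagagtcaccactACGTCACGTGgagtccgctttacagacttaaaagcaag
The Ptgs1 window held none of the 5 motifs. The Ptgs2 window held a GC box at -170 to -165, counted with the start as 0, and a cyclic AMP response element core on the other strand at 12 to 17 that overlapped an E-box at 16 to 21. Of all 32851 promoter windows of this length, 35.7% held the GC box, 7.51% the cyclic AMP core, 7.15% the E-box, 13.6% the TATA box and 8.46% the NF-κB consensus. Such matches describe letters only and say nothing of binding.

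Ptgs1 (chr2:36230426-36252272, + strand, GRCm38) lay at 214 to 483 CPM in the vehicle tumors, with a median of 395 CPM, and at 74.3 to 414 CPM in the IL-33 tumors, with a median of 310 CPM. Its lowest vehicle tumors on this scale were replicates 7 and 4, and IL-33 replicate 7 was below all 8 vehicle tumors, 4.88-fold under their mean. The other 7 IL-33 tumors lay between 266 and 414 CPM, inside the vehicle range. The edgeR log2 fold change of IL-33 over vehicle was -0.31 ± 0.28 (SE, adjusted p = 0.74) with all tumors and -0.15 ± 0.17 (adjusted p = 0.96) without IL-33 replicate 7.

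Ptgs2 (chr1:150100031-150108227, + strand) ranged from 51.2 CPM in vehicle replicate 4 to 257 CPM in vehicle replicate 2, with a vehicle median of 107 CPM. In the IL-33 tumors it ranged from 19.4 CPM in replicate 7 to 195 CPM in replicate 8, with a median of 110 CPM. The medians of the groups lay close together, and the vehicle tumors differed among themselves by 5.02-fold. In edgeR the log2 fold change was -0.13 ± 0.37 (adjusted p = 0.95 in edgeR) with all tumors and 0.04 ± 0.27 (adjusted p = 0.99) without IL-33 replicate 7.

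The within-tumor ratio of the inducible to the steady cyclooxygenase was compared as log2 of Ptgs2 over Ptgs1. It averaged -1.68 ± 0.77 (SD, n = 8) in vehicle and -1.54 ± 0.67 (SD, n = 8) in IL-33 tumors, a difference of 0.14 (exact permutation test, two-sided, p = 0.71, adjusted over 3 ratios 0.71). Ptgs2 stayed below Ptgs1 in each of the 16 tumors. The ratio came nearest to 1 in vehicle replicate 2, at -0.29 on the log2 scale, and was lowest in IL-33 replicate 1, at -2.72. The spread of the ratio within each group exceeded the difference between groups.

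Ptges (chr2:30889471-30929863, − strand) was read at 202 to 442 CPM in the vehicle tumors, with a median of 323 CPM, and the IL-33 tumors spanned 83.4 to 548 CPM, with a median of 309 CPM. IL-33 replicates 5 and 6, at 548 and 541 CPM, were above every vehicle tumor on this scale, and IL-33 replicate 7 was below every vehicle tumor. With TMM-scaled totals vehicle replicate 4 was at 604 CPM, above IL-33 replicate 5 (567 CPM) and level with IL-33 replicate 6 (605 CPM), while IL-33 replicate 7 stayed the lowest of all (67.1 CPM). The group means were 337 ± 75.9 CPM and 335 ± 161 CPM (SD, n = 8 each), and the log2 fold change was -0.09 ± 0.34 (adjusted p = 0.96 in edgeR).

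Hpgd (chr8:56294585-56321043, + strand) was almost absent from most tumors. Its vehicle values ran from 0 CPM in replicate 6 to 5.32 CPM in replicate 7, with a median of 0.54 CPM, and its IL-33 values from 0 CPM in replicate 5 to 36.8 CPM in replicate 7, with a median of 0.55 CPM. IL-33 replicate 7 alone held 645 of the 740 Hpgd counts of its group (87.2%). The log2 fold change of 1.92 ± 1.21 (adjusted p = 0.60 in edgeR) with all tumors became -0.71 ± 0.88 (adjusted p = 0.96) without that tumor, which is the tumor with reproductive tract transcripts. The part of those cells in the Hpgd value was not tested. The value also depended on the method. With all tumors limma voom with sample quality weights gave -0.055, and DESeq2 gave 0.23. DESeq2 was run at its default settings, which can replace counts that it flags as outliers before the fit. Whether counts of Hpgd were replaced was not looked up. With the replicate number as a block and without IL-33 replicate 7 edgeR gave 0.15. Without vehicle replicate 7 the log2 fold change was 2.89, with an unadjusted p under 0.05.

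The log2 ratio of Ptgs2 to Hpgd, the inducible cyclooxygenase against the enzyme that begins prostaglandin E2 inactivation, averaged 6.49 ± 1.14 (SD, n = 8) in vehicle and 5.86 ± 2.90 (SD, n = 8) in IL-33 tumors (exact permutation test, two-sided, p = 0.71, adjusted over 3 ratios 0.71). In IL-33 replicate 7 it was -0.91, the one tumor in which Hpgd exceeded Ptgs2, and in the other tumors it lay between 4.49 and 7.74. Without that tumor the IL-33 mean was 6.82 ± 1.05 (SD, n = 7), and the difference turned from -0.64 to 0.33 (exact permutation p = 0.57).

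The prostaglandin E2 receptors were read at lower levels than the enzymes that make the ligand. Ptger2 (chr14:44988195-45003820, + strand) lay between 8.56 and 14.9 CPM in the vehicle tumors, with a median of 10.8 CPM. In the IL-33 tumors 6 values lay between 13.4 and 15.4 CPM and the remaining 2, replicates 5 and 6, at 4.50 and 4.81 CPM, below every vehicle tumor. Ptger2 exceeded the vehicle mean of 11.6 CPM in 6 of 8 IL-33 tumors. The log2 fold change was -0.08 ± 0.24 (adjusted p = 0.95 in edgeR), and -0.08 ± 0.25 without IL-33 replicate 7.

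Ptger4 (chr15:5206661-5244187, − strand) ranged from 1.84 CPM in vehicle replicate 4 to 14.7 CPM in vehicle replicate 7, with a median of 6.00 CPM, and from 2.05 CPM in IL-33 replicate 6 to 39.9 CPM in IL-33 replicate 7, with a median of 8.02 CPM. IL-33 replicates 5 and 6 were again the lowest of their group. For Ptger4 the log2 fold change was 0.45 ± 0.45 (adjusted p = 0.78 in edgeR) with all tumors and -0.11 ± 0.34 (adjusted p = 0.98) without IL-33 replicate 7. The gene overlaps Ttc33 on the opposite strand, and since strand was not stated the pair could share reads. Ptger2, Alox5ap and Ltc4s overlap annotated antisense transcripts, with the same limit.

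The 5-lipoxygenase branch was read mostly through Alox5ap. Alox5 (chr6:116410077-116461178, − strand), the enzyme itself, lay between 1.68 and 5.28 CPM in the vehicle tumors, with a median of 3.26 CPM. In the IL-33 tumors it lay between 1.48 and 12.3 CPM, with a median of 2.31 CPM. The highest IL-33 value was that of replicate 7, and without it the 7 others lay between 1.48 and 3.77 CPM, with a mean of 2.33 ± 0.76 CPM (SD, n = 7) against 3.46 ± 1.31 CPM (SD, n = 8) in vehicle. Without replicate 7, 1 of 7 IL-33 tumors exceeded the vehicle mean. The log2 fold change was -0.13 ± 0.41 (adjusted p = 0.95 in edgeR) with all tumors and -0.61 ± 0.29 (adjusted p = 0.96) without IL-33 replicate 7. Without that tumor the unadjusted p was 0.051 in edgeR and 0.035 in DESeq2, and p was 0.074 by exact permutation of log2(CPM + 0.5). Each of these Alox5 values rests on 31 to 107 counts per tumor.

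Alox5ap (chr5:149264767-149288153, + strand), the membrane protein that presents arachidonic acid to Alox5, was read at 21.9 to 59.7 CPM in vehicle, with a median of 30.7 CPM, and at 27.0 to 76.8 CPM in IL-33 tumors, with a median of 31.9 CPM. Its highest tumors were vehicle replicates 4 and 7 and IL-33 replicate 3. Its log2 fold change was -0.06 ± 0.30 (adjusted p = 0.97 in edgeR).

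Ltc4s (chr11:50236461-50238616, − strand) ranged from 6.96 to 72.1 CPM in the vehicle tumors, with a median of 11.1 CPM, while the IL-33 tumors spanned 6.88 to 27.7 CPM, with a median of 14.1 CPM. Vehicle replicate 4 alone held 42.0% of the vehicle group's Ltc4s counts and lay 6.79-fold above the median of the other 7. The log2 fold change was -0.72 ± 0.55 (adjusted p = 0.68 in edgeR) with all tumors and 0.40 ± 0.26 (adjusted p = 0.70) without vehicle replicate 4. DESeq2 gave 0.41 with all 16 tumors, at the default settings that can replace counts flagged as outliers.

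**Figure D2:**
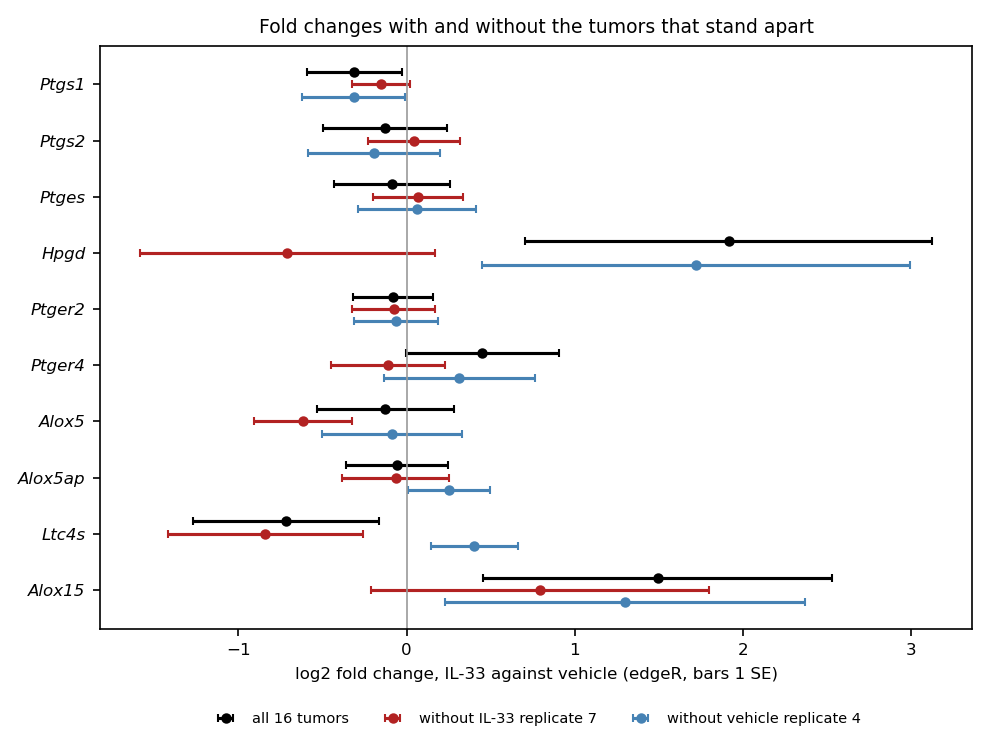
Log2 fold change of IL-33 over vehicle from edgeR for each gene, with bars of 1 SE, for all 16 tumors (black), without IL-33 replicate 7 (red) and without vehicle replicate 4 (blue). Hpgd moved from 1.92 to -0.71 without IL-33 replicate 7, and Ltc4s from -0.72 to 0.40 without vehicle replicate 4.

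Alox15 (chr11:70344152-70352031, − strand), the 12/15-lipoxygenase of resident peritoneal macrophages and eosinophils, was uneven across tumors in both groups. Its vehicle values lay between 0.28 and 25.7 CPM, with a median of 1.01 CPM, and only replicates 2 and 7 were above 3 CPM, at 25.7 and 6.57 CPM. Its IL-33 values lay between 0.14 and 58.9 CPM, with a median of 8.17 CPM, and replicates 4, 5, 7 and 8 lay between 14.2 and 58.9 CPM while replicates 1, 2, 3 and 6 lay between 0.14 and 2.19 CPM. At 14.2 CPM or above lay 4 of 8 IL-33 tumors and 1 of 8 vehicle tumors, a divide that was chosen after the values had been seen. The mean log2(CPM + 0.5) was 1.34 higher in the IL-33 group (exact permutation test, two-sided, p = 0.21). The edgeR log2 fold change was 1.49 ± 1.04 (adjusted p = 0.64) with all tumors and 0.79 ± 1.00 (adjusted p = 0.96) without IL-33 replicate 7. Without vehicle replicate 2 it was 2.91, with an unadjusted p under 0.05.

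The log2 ratio of Alox5 to Alox15 averaged 0.67 ± 1.70 (SD, n = 8) in vehicle and -0.83 ± 2.19 (SD, n = 8) in IL-33 tumors, a difference of -1.51 (exact permutation test, two-sided, p = 0.15, adjusted over 3 ratios 0.45). Without IL-33 replicate 7 the difference was -1.31 (exact permutation p = 0.22). The ratio was below 0 in IL-33 replicates 4, 5, 7 and 8 and in vehicle replicates 1, 2 and 7.

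Levels of different genes were compared per kilobase of annotated exon. In the vehicle tumors the median was 102 CPM per kilobase for Ptgs1, 82.1 for Ptges, 23.4 for Ptgs2, 21.6 for Alox5ap, 10.9 for Ltc4s, 2.08 for Ptger2, 0.90 for Ptger4, 0.79 for Alox5, 0.41 for Alox15 and 0.32 for Hpgd. Ptges exceeded Ptgs2 in 8 of 8 vehicle tumors and Ltc4s exceeded Ptger2 in 8 of 8. The ranges of neighbours in this order overlapped except between Ltc4s and Ptger2. Ptgs1 was above Ptges in 6 of 8 vehicle tumors, and Ptgs2 was above Alox5ap in 3 of 8. Prostaglandin E2 synthesis genes were thus read at higher levels per length than their receptors in vehicle tumors.

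**Figure D3:**
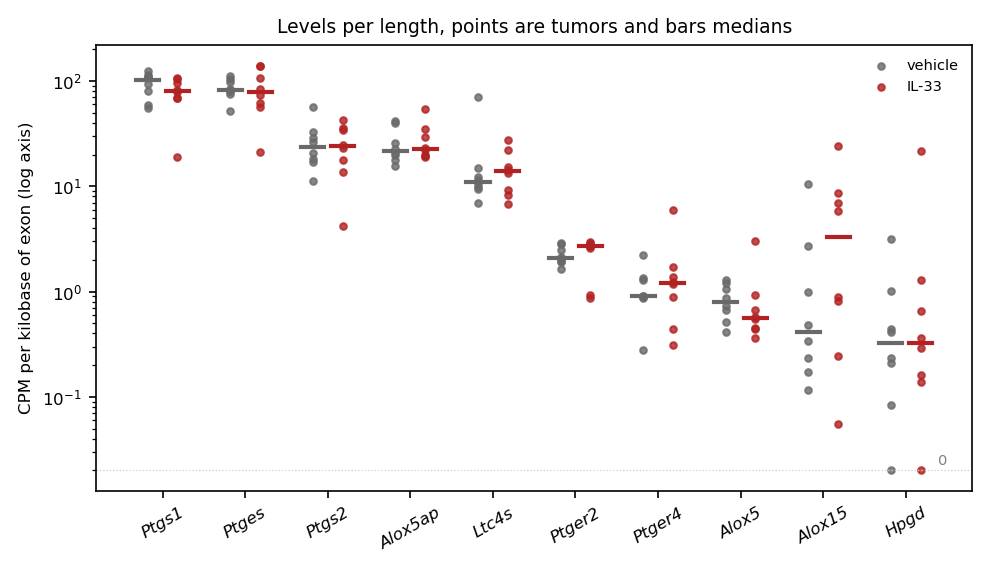
Level of each gene per kilobase of exon in CPM, on a log axis, in vehicle (grey) and IL-33 tumors (red), with points for tumors, bars for medians and tumors at 0 drawn on the dotted line. Vehicle medians ran from 102 for Ptgs1 to 0.32 for Hpgd.

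Members were next compared with each other over the 15 tumors without IL-33 replicate 7, a comparison of 45 pairs that was chosen after the values had been seen. Correlations were computed on log2(CPM + 0.5), on which the distance from the median was also taken, and all values share the total count as denominator. Ptges and its product's receptor Ptger4 ran in opposite directions, with Pearson r = -0.82 (permutation p = 1.6e-04, adjusted over 45 pairs 0.0072) and Spearman rho = -0.84 (permutation p = 1.6e-04, adjusted 0.0072). The relation was -0.90 without the 2 tumors farthest from the median of Ptger4, vehicle replicate 4 and IL-33 replicate 6, and it was -0.67 within the 8 vehicle tumors and -0.95 within the 7 IL-33 tumors. IL-33 replicate 7, which was left out, had the lowest Ptges and the highest Ptger4 of all tumors. By rho no other pair passed adjustment. By Pearson r 1 further pair did, Ptges with Hpgd (r = -0.74, permutation p adjusted 0.031, against rho = -0.67, adjusted 0.087). For this pair r was -0.50 without the 2 tumors farthest from the median of Hpgd, -0.92 within the vehicle tumors and -0.63 within the IL-33 tumors. The promoter windows of Ptges and Ptger4 are shown because these members ran against each other, at chr2:30903248-30903547 (− strand) and chr15:5244138-5244437 (− strand) of GRCm38, with capitals as above.
Ptges promoter: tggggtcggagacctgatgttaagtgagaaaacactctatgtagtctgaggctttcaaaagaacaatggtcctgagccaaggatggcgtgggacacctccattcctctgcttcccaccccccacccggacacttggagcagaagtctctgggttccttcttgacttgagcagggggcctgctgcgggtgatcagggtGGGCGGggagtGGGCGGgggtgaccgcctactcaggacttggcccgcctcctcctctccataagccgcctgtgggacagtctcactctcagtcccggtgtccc
Ptger4 promoter: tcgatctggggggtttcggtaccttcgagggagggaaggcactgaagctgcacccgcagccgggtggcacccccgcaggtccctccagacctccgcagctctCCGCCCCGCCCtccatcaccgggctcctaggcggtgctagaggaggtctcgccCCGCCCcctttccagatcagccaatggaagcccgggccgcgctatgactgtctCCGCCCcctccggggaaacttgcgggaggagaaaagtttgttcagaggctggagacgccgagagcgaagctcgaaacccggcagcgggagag
The Ptges window held 2 GC boxes, at -53 to -48 and at -42 to -37. The Ptger4 window held 4 GC boxes, at -148 to -143, -143 to -138, -95 to -90 and -42 to -37, all on the other strand, the first pair sharing a base. Over the 8 members with a window in the RefSeq table, 5 held a GC box, 1 each the TATA box (Hpgd), the cyclic AMP core and the E-box (both Ptgs2), and 0 the NF-κB consensus. The GC content was 60.0% for Ptges and 67.0% for Ptger4, against a median of 52.7% over all windows. Alox5ap and Alox15 are named only.

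The members were also set beside the summed CPM of 20 lists of cell type markers over the same 15 tumors and on the same log2 scale, 200 relations in all, of which 13 passed adjustment by Spearman rho, 23 by Pearson r and 11 by both. The 13 fell on 4 members, 5 each on Ptges and Ptger4, 2 on Alox15 and 1 on Alox5ap. Ptges fell as T cell markers rose, with r = -0.88 and rho = -0.88 (permutation p of rho 5.0e-05, adjusted over 200 relations 0.010), r = -0.82 without vehicle replicate 7 and IL-33 replicate 4, and r of -0.92 and -0.91 within the vehicle and the IL-33 tumors. Ptges also ran against macrophage markers (r = -0.86, rho = -0.76, permutation p of rho adjusted 0.043), mast cell markers (r = -0.81, rho = -0.82, permutation p adjusted 0.019) and the basophil list (r = -0.81, rho = -0.82, permutation p adjusted 0.019). Without the 2 tumors farthest from the median of each list, these r were -0.76, -0.69 and -0.70, and within the vehicle and the IL-33 tumors they lay between -0.81 and -0.90. It rose with the epithelial list (r = 0.76, rho = 0.80, permutation p adjusted 0.024), which is Krt8 for 97.4% to 99.7% of its level in each of these tumors, and r was 0.77 without the 2 farthest tumors, 0.84 within vehicle and 0.87 within IL-33 tumors. The basophil list was Gata2 for 84.9% of its mean level, with 3 of 4 genes averaging under 1 CPM. The mast cell list was Hdc for 38.0% of its mean level, from 6.09% to 74.0% by tumor, with 3 of 10 genes averaging under 1 CPM. With neutrophil markers Ptges had the other sign (r = 0.49, rho = 0.54, permutation p adjusted 0.19), and with blood endothelium markers it passed by r alone (r = -0.73, permutation p adjusted 0.030). Whether Ptges is read in the tumor cells was not tested.

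**Figure D4:**
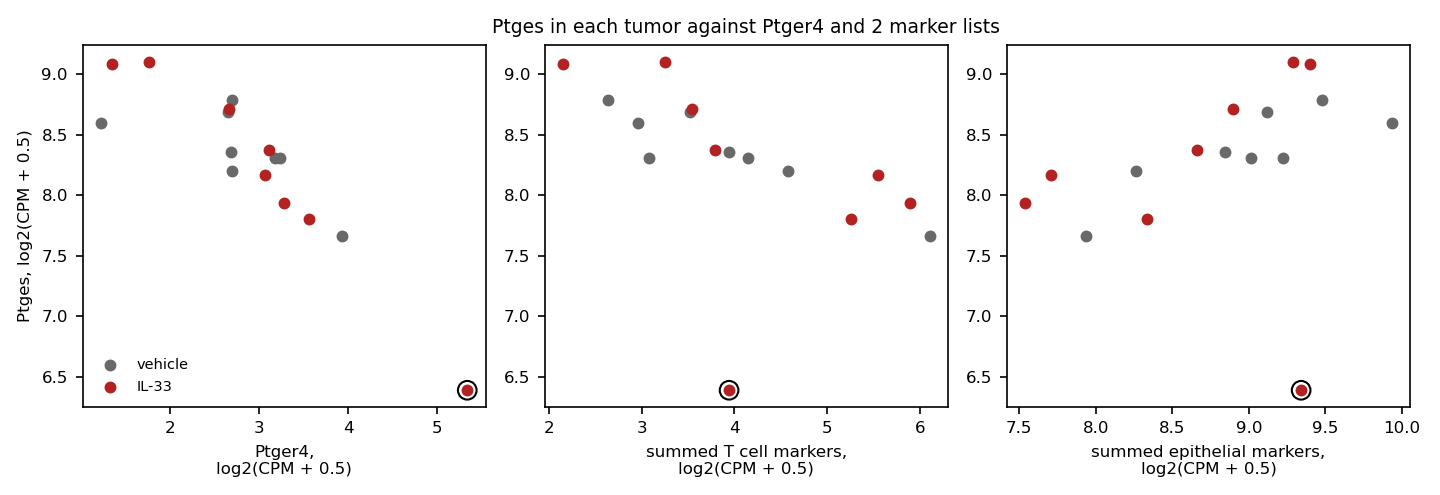
Ptges in each tumor against Ptger4, summed T cell markers and summed epithelial markers, which are nearly all Krt8, each on the scale log2(CPM + 0.5), for vehicle (grey, n = 8) and IL-33 tumors (red, n = 8). The black circle marks IL-33 replicate 7, left out of the correlations, and over the other 15 tumors r was -0.82, -0.88 and 0.76.

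Ptger4 had the opposite pattern to Ptges. It rose with macrophage markers (r = 0.76, rho = 0.79, permutation p of rho adjusted 0.024), T cell markers (r = 0.73, rho = 0.73, permutation p adjusted 0.043), the basophil list (r = 0.64, rho = 0.74, permutation p adjusted 0.043) and blood endothelium markers (r = 0.65, rho = 0.75, permutation p adjusted 0.043), and ran against neutrophil markers (r = -0.76, rho = -0.81, permutation p adjusted 0.019). The basophil list, mostly Gata2, and blood endothelium markers passed by rho alone (permutation p of r adjusted 0.061 and 0.058). The correlation with neutrophil markers was -0.70 without vehicle replicate 4 and IL-33 replicate 2. With macrophage markers r was 0.57 without vehicle replicate 7 and IL-33 replicate 6, and with the basophil list it was 0.44 without vehicle replicate 7 and IL-33 replicate 5. Without vehicle replicate 7 and IL-33 replicate 4 it was 0.65 with T cell and 0.51 with endothelial markers. All 5 relations had the same sign within the vehicle and within the IL-33 tumors. By r alone Ptger4 also passed with mesothelium (r = -0.80, permutation p adjusted 0.013), fibroblast (r = 0.75, permutation p adjusted 0.029) and epithelial markers (r = -0.71, permutation p adjusted 0.038), with r of -0.68, 0.76 and -0.77 without the 2 farthest tumors.

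Alox15 ran with the eosinophil list (r = 0.74, rho = 0.73, permutation p of rho adjusted 0.043) and with dendritic cell markers (r = 0.79, rho = 0.73, permutation p adjusted 0.043), and r was 0.74 with each list without the 2 farthest tumors. Within the vehicle and the IL-33 tumors r was 0.66 and 0.89 for the eosinophil list and 0.83 and 0.72 for dendritic cell markers. The eosinophil list was low throughout, at 0.82 to 8.06 CPM in the 15 tumors, and 51.4% of its mean level was Ear2, while Epx, which defines the cell type, was at 0 in all tumors but IL-33 replicate 4. The dendritic cell list was Itgax for 72.1% of its level. With markers of resident peritoneal macrophages Alox15 had r = 0.21 and rho = 0.16 (permutation p adjusted 0.87). That list was Lyve1 for 33.5% of its mean level, from 2.83% to 62.9% by tumor, and Cxcl13 for 29.8%. Its single genes were not tested apart, so a relation of Alox15 to these cells is not settled by the summed list. Alox5ap rose with platelet and megakaryocyte markers (r = 0.71, rho = 0.73, permutation p adjusted 0.043), a list that was Pf4 for 76.3% of its level, and r was 0.71 without vehicle replicate 4 and IL-33 replicate 4, 0.93 within vehicle and 0.60 within IL-33 tumors. Alox15 with B cell markers had the highest r of its lists and passed by r alone (r = 0.85, permutation p adjusted 0.0072, against rho = 0.58, adjusted 0.15), with r of 0.86 within vehicle, 0.83 within IL-33 tumors and 0.74 without the 2 farthest tumors.

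For Ptgs1, Ptgs2, Hpgd, Ptger2, Alox5 and Ltc4s no list passed adjustment by rho, but each had at least 1 list that passed by r alone. Ptgs1 ran against the eosinophil list (r = -0.73, permutation p adjusted 0.030), and rho was close to it (-0.72, adjusted 0.051). Ptger2 ran against the mesothelium list, which is mostly Msln (r = -0.69, permutation p adjusted 0.047). Hpgd ran with macrophage (r = 0.69, permutation p adjusted 0.045) and skeletal muscle markers (r = 0.67, permutation p adjusted 0.047), Ptgs2 with dendritic cell markers (r = 0.68, permutation p adjusted 0.047), Alox5 with fibroblast markers (r = 0.68, permutation p adjusted 0.047) and Ltc4s with platelet and megakaryocyte markers (r = 0.69, permutation p adjusted 0.038). Without the 2 tumors farthest from the median of the list these 7 correlations shrank to between 0.35 and 0.63 in size, with -0.63 for Ptgs1, 0.57 for Hpgd with macrophage markers and 0.35 for Alox5 with fibroblast markers.

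**Figure D5:**
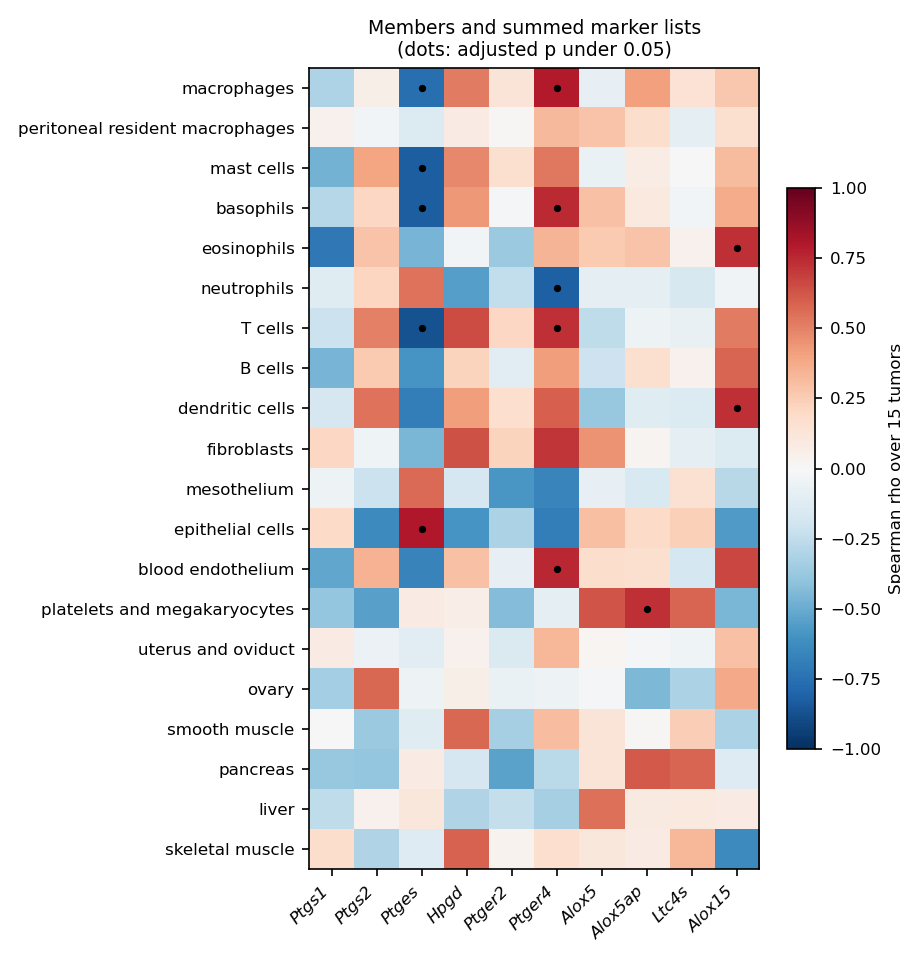
Spearman rho between each member (columns) and the summed level of each marker list (rows) over the 15 tumors without IL-33 replicate 7, from -1 (blue) to 1 (red), with dots where the permutation p adjusted over 200 relations was under 0.05. The 13 dots lie on Ptges, Ptger4, Alox5ap and Alox15.

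The genes most like each member across the 15 tumors were ranked by Spearman rho of CPM among 13099 genes, as a description with no test. Ptgs1 was most like 9530068E07Rik (rho 0.96) and Ybx3 (0.95), and Ptgs2 was most like Cdk17 (0.93). Ptges was most like Eef2 (0.95), and Ptger4 most like Arsi (0.97) and Fscn1 (0.94). Alox15 was most like Dlat (0.94) and Me2 (0.94), Ltc4s like Serhl (0.92), Hpgd like Arl2bp (0.91), Alox5 like Aldoc and Ccl6 (0.88 each), Ptger2 like Trib1 (0.88) and Alox5ap like Nucb2 (0.86).

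Among 46 other genes of the pathway, 45 were in the files and 42 were tested. With all tumors 5 of 42 had an unadjusted p under 0.05 and were higher in IL-33 tumors, against 9.99% of all genes, and 0 were lower, against 1.17%. Limma voom with sample quality weights gave 0 higher and 4 lower of the 42, where it called 522 of 16817 genes higher and 444 lower. With edgeR the median log2 fold change of the 42 was 0.21, where the median of all genes tested was 0.06. Of the 45 genes, 27 had their highest level of all 16 tumors in IL-33 replicate 7. Without that tumor 0 of 38 were higher, against 1.83% of all genes, 2 of 38 were lower, against 2.29%, and the median log2 fold change was -0.08.

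The 5 counted as higher with all tumors were 3 of the 10 genes that release arachidonic acid and related lipids, 1 of 8 prostanoid synthases and 1 of 4 tested among other lipoxygenases and oxylipin enzymes. Pla2g5, a secreted phospholipase, was at 8.95 CPM in IL-33 replicate 7 and averaged 0.45 CPM in the other IL-33 tumors and 0.29 CPM in vehicle. Pla2g10, also a secreted phospholipase, was at 2.85 CPM in that tumor and at 0 in every vehicle tumor. Faah, which hydrolyses fatty acid amides, was at 15.2 CPM in that tumor, 3.36 CPM on average in the other IL-33 tumors and 2.50 CPM in vehicle. Cbr1, a carbonyl reductase that acts on prostaglandin E2, was at 52.1 CPM in that tumor, 2.39 CPM in the others and 2.43 CPM in vehicle. Alox12e, an epidermal lipoxygenase, was at 43.9 CPM in that tumor and averaged 0.0078 CPM in the other IL-33 tumors. All 5 were thus highest in IL-33 replicate 7, and their adjusted p was 0.42 for Pla2g5, Pla2g10, Faah and Alox12e and 0.43 for Cbr1 in edgeR.

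The 2 counted as lower without IL-33 replicate 7 were Ptgfr, the receptor of prostaglandin F2 alpha, and Dpep1, a dipeptidase that cleaves leukotriene D4. Ptgfr averaged 16.3 ± 10.3 CPM (SD, n = 8) in vehicle and 8.00 CPM in the 7 IL-33 tumors, a log2 fold change of -1.07 ± 0.44 (adjusted p = 0.96 in edgeR). The 1 of 8 IL-33 tumors above the vehicle mean was replicate 7, which is outside this comparison. Dpep1 averaged 5.00 ± 5.38 CPM (SD, n = 8) and 1.72 CPM, a log2 fold change of -1.58 ± 0.61 (adjusted p = 0.96). In IL-33 replicate 7 both were high, at 38.9 CPM for Ptgfr and 31.4 CPM for Dpep1.

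Pla2g4a, the cytosolic phospholipase that supplies arachidonic acid, averaged 52.1 ± 19.1 CPM in vehicle and 58.8 ± 8.85 CPM in IL-33 tumors (SD, n = 8 each), with 8 of 8 IL-33 tumors above the vehicle mean and a log2 fold change of 0.14 ± 0.18 (adjusted p = 0.84 in edgeR). Its highest level of all 16 tumors was in vehicle replicate 2, and the share of all genes with 8 of 8 was not counted. Lta4h, which makes leukotriene B4, averaged 65.2 ± 9.40 and 62.1 ± 5.97 CPM, with 3 of 8 IL-33 tumors above the vehicle mean and a log2 fold change of -0.17 ± 0.11 (adjusted p = 0.63). These were named after their values had been seen.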

How the data were processed

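Polyadenylated RNA of 16 abdominal tumors was sequenced. The authors deposited 1 table of raw counts per tumor, without normalization, and the submitters' processing notes name HISAT2, featureCounts and mm10. Versions, the annotation release and the use of strand are not given in the sources used here. Gene identifiers were matched to GENCODE M21 (GRCm38), which named 22255 of 22298. Groups and replicate numbers came from the labels. Counts were tested with edgeR 4.0.16 (R 4.3.3), TMM, the quasi-likelihood test and Benjamini-Hochberg adjustment, for genes with at least 10 counts over all tumors. The scripts were tested on simulated data. With the spread of these tumors, edgeR recovered 68 of 99 planted 4-fold and 28 of 98 planted 2-fold changes at an adjusted p under 0.05. Most 2-fold changes in such data would thus be missed. Single genes and ratios were tested by two-sided exact permutation of log2(CPM + 0.5), and correlations of log2(CPM + 0.5), with summed CPM for lists, with 100000 permutations. Alternatives used DESeq2 1.42.0 at default settings, limma 3.58.1 and each tumor left out. Any 2 tumors differed by more than counting error. The members, the lists of pathway genes and markers and the rule for named genes (members, pathway genes with an unadjusted p under 0.05 with all tumors or without IL-33 replicate 7, and the genes most like each member by rho) were chosen with earlier results of these data known. Promoter windows (GRCm38.p6) are from RefSeq.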

Additional observations from a re-analysis of the deposited data

Results flagged for a closer look

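Values were screened in 20 sets of 8 tumors (10 genes in each group). In 9 sets a tumor's gap to the nearest other exceeded Dixon's 95% critical value of 0.526 of the group's range. Chance gives about 1 in 20 for independent, normally distributed values. The sets share the same 16 tumors and CPM is skewed, so the count is a description and not a test. IL-33 replicate 7 gave 5 of the 9. It was the lowest IL-33 tumor for Ptgs1 (74.3 CPM) and the highest for Hpgd (36.8 CPM), Ptger4 (39.9 CPM), Alox5 (12.3 CPM) and Alox15 (58.9 CPM). Beside these values the same tumor held 1678 CPM of ovary markers and 5252 CPM of smooth muscle markers, and their part in them was not tested. Alox5ap stood apart in IL-33 replicate 3 (76.8 CPM). In the vehicle group Ltc4s stood apart in replicate 4 (72.1 CPM), Hpgd in replicate 7 (5.32 CPM) and Alox15 in replicate 2 (25.7 CPM). The markers of T cells were highest of all tumors in vehicle replicate 7 (68.3 CPM) and those of B cells in vehicle replicate 2 (73.9 CPM). Vehicle replicate 7 also held 653 CPM of skeletal muscle markers, against a vehicle median of 4.95 CPM. These markers were at 1059 CPM in vehicle replicate 8 and 617 CPM in IL-33 replicate 1. Their part in the Hpgd values was not tested.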

How the results depend on the processing

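Ptgs1, Alox5 and Alox15 kept the sign of their log2 fold change under all 25 alternatives, and the other 7 members changed sign under 2 to 7 of them. Limma voom with sample quality weights gave 0.0032 for Ptgs2, 0.020 for Ptges, -0.055 for Hpgd, -0.14 for Ptger4, 0.11 for Alox5ap and 0.091 for Ltc4s. DESeq2 gave 0.41 for Ltc4s, and without IL-33 replicate 7 it gave 0.033 for Ptgs2, 0.057 for Ptges, -0.73 for Hpgd, -0.12 for Ptger4 and 0.27 for Ltc4s. With the replicate number as a block, a paired fit, Alox5ap was 0.039 and Ltc4s 0.038, and without IL-33 replicate 7 the replicate block gave 0.080 for Ptgs2, -0.011 for Ptger4 and 0.11 for Alox5ap. Same-numbered tumors deviated with correlations of -0.33 to 0.37, and 2 vehicle tumors correlated best with their own number. The labels do not say whether the numbers pair tumors, and these correlations cannot decide it. Leaving out 1 tumor each gave -0.27 to 0.11 for Ptgs2, -0.26 to 0.070 for Ptges, -0.71 to 2.89 for Hpgd, -0.15 to 0.031 for Ptger2, -0.11 to 0.66 for Ptger4, -0.28 to 0.25 for Alox5ap and -0.86 to 0.40 for Ltc4s. Without IL-33 replicate 7 the difference of mean log2(CPM + 0.5) turned to -0.22 for Hpgd, -0.10 for Ptger4, 0.091 for Ptges and 0.11 for Ptgs2, and the log2 ratio of Ptgs2 to Hpgd to 0.33. The cause of these turns was not tested beyond the tumors named.

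At an unadjusted p under 0.05, 1680 genes were higher with edgeR, against 424 with DESeq2, 499 with filterByExpr, 522 with limma voom, 246 with the replicate block, 286 with DESeq2 and 195 with the replicate block without IL-33 replicate 7, and 289 to 1902 with 1 tumor left out. The 196 lower genes became 444 with limma voom, 72 with the replicate block, 392 with DESeq2 without IL-33 replicate 7 and 111 to 362 with 1 tumor left out. DESeq2 without IL-33 replicate 7 was the one setting with a gene at an adjusted p under 0.05 (1 gene, Alas2, an enzyme of heme synthesis and not a member, looked up after its value was seen). The 0 members with an unadjusted p under 0.05 became 1 with DESeq2 without IL-33 replicate 7 (Alox5, lower, as were 2.48% of all genes). With 1 tumor left out they became 0 to 1 (Alox15 without vehicle replicate 2, Hpgd without vehicle replicate 7, both higher). In these 2 fits 1538 of 16770 and 1688 of 16764 genes were higher. The 5 other pathway genes of 42 tested, all higher, became 2 with DESeq2 (1 higher and 1 lower) and 3 of 32 with filterByExpr (all higher). They became 0 with the replicate block and 4 with limma voom (all lower). Of all genes DESeq2 called 2.52% higher and 1.59% lower, and filterByExpr gave 499 of 12800 higher. Of 16817 genes limma voom called 444 lower, and the replicate block 246 higher and 72 lower. Without IL-33 replicate 7 they became 2 of 38, both lower, with edgeR, DESeq2 and the replicate block alike. There 2.29% of all genes were lower with edgeR, 2.48% with DESeq2 and 153 of 15803 with the replicate block. With 1 tumor left out the count lay between 2 and 8. The 8 came without IL-33 replicate 1, where 1900 of 16780 genes were higher. Depth limits Hpgd, Alox15 and Alox5 most, with 0 to 107 counts in many tumors.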
